A study of Mus musculus with 10 samples.

Results

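The DNA replication and mitosis genes described here are 49 genes with which dividing cells copy their DNA and share it between daughter cells. They comprise 25 genes used in S phase and 24 used in G2 and mitosis, with the *Kif* kinesins left out. They were picked by name, with earlier results of these data known. All 49 were found by symbol among the 53801 genes of the count table, and all 49 were among the 14336 genes that passed the filter on low counts.

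Poly(A) RNA was sequenced from AtT20/D16v-F2 cells, a line grown from a mouse pituitary tumour of corticotroph cells, the cells that make the hormone precursor POMC. A lentivirus carrying *Creb3l1*-shRNA1 (5 libraries) or a non-targeting shRNA (5 libraries) had been introduced stably, and the labels give no other treatment. The study asked which genes change when *Creb3l1*, a transcription factor that is held in the endoplasmic reticulum membrane until it is cleaved, is depleted. Each shRNA is represented by 1 stable line, so the knockdown and other differences between the lines cannot be told apart, and p-values measure the spread between the libraries of these lines. The study calls its replicates biological without saying how the 5 of a line were separated.

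Before S phase, the MCM2-7 helicase is loaded onto replication origins by CDC6 and CDT1, and it is switched on at S phase when CDC45 and the GINS complex join it with the help of MCM10. Cyclin E drives entry into S phase, cyclin A carries cells through it, and CDK1 with cyclin B drives entry into mitosis. At mitosis the spindle checkpoint kinases hold back CDC20 and the anaphase-promoting complex until every chromosome is attached. AtT20 cells divide in culture. A bulk RNA level does not tell a change in the share of cells in a phase from a change in RNA per cell.

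The library totals were 17420698 to 22205107 counts. Normalised *Creb3l1* counts were 3531 to 3864 in the control libraries and 1014 to 1159 in the knockdown libraries (log2 fold change -1.76, SE 0.036, adjusted p = 2.05e-33, edgeR quasi-likelihood test). All 6 corticotroph markers were detected, and 5 of them changed: *Pomc* (131411 ± 4050.2 in controls and 92045 ± 2652 in knockdown cells, mean ± SD, n = 5), *Tbx19* (11661 ± 119.9 and 9669 ± 228) and *Pcsk1* (9981 ± 179 and 7269 ± 196) were lower in knockdown cells, and *Neurod1* (1566 ± 64.6 and 2399.9 ± 82.3) and *Pitx1* (892 ± 63.9 and 1144 ± 134; adjusted p = 0.00727, and 0.0141 without *Creb3l1*-shRNA1 replicate 2) were higher, while *Crhr1* was low and did not pass the test (29.2 and 26.9). By quantitative PCR the study saw no change of *Pomc* RNA in its *Creb3l1* knockdown AtT20 lines. Of other pituitary cells, *Gh*, *Prl*, *Tshb*, *Lhb*, *Fshb* and *Pou1f1* had at most 2 counts in any library and *Nr5a1* had 78.7 ± 9.23 in controls. Of 7 markers of fibroblasts, leukocytes, endothelium and glia, *Ptprc* and *Cdh5* had no count, *S100b* and *Gfap* had at most 3, *Pecam1* and *Col3a1* had means of 13.8 and 48.2 in controls, and *Col1a1* had 717 ± 79.1 in controls and 935 ± 148 in knockdown cells. Of 3 of these 7 markers that could be tested, 1 other than *Col1a1* was called, lower in knockdown cells (log2 fold change -1.08). No gene of the 7 was called without *Creb3l1*-shRNA1 replicate 2. A pair of libraries stood apart. Non-targeting replicate 3 had 4.13% of its counts in the ribosomal RNA-like gene *Gm42418*, against at most 0.191% in every other library. *Creb3l1*-shRNA1 replicate 2 had 8 members more than 0.2 on the log2 scale below the mean of the other 4 knockdown libraries, against at most 1 in any other library compared with its own line. These 8 were *Pola1*, *Ccne2*, *Ttk*, *Bub1*, *Cenpe*, *Cenpf*, *Mki67* and *Nusap1*. Their own values and the counts and medians over the groups they belong to are given with and without that library.

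Of the 49 members, 19 changed at an adjusted p under 0.01, 6 of them higher and 13 lower in *Creb3l1* knockdown cells. Over all 14336 genes tested the share called was 40.7% (20.6% higher and 20.1% lower), and over the members it was 38.8%, close to that background. No member changed by 1.5-fold or more, a size that 7.73% of all genes passed together with the threshold on p. The ranges of normalised counts in the 2 lines were separate for 21 members, 7 higher and 14 lower, against 36.0% of all genes. The median log2 fold change was -0.038 over the members and -0.0025 over all genes tested. Without *Creb3l1*-shRNA1 replicate 2, 21 members were called (8 higher, 13 lower) and 41.5% of all genes. With each library's dependence on GC content and transcript length fitted as offsets, 23 members were called (9 higher, 14 lower) and 42.9% of all genes. In 18 other fits, which changed the scaling, the filter, the tool or the libraries, 13 of the 19 calls kept their direction and their side of the threshold throughout.

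Called S-phase members went both ways and called G2/M members mostly fell. Of 25 S-phase members, 5 rose and 6 fell, with a median log2 fold change of 0.012. Without *Creb3l1*-shRNA1 replicate 2, 7 rose and 6 fell with a median of 0.0037, and with the offsets 7 rose and 5 fell with a median of 0.048. Of 24 G2/M members, 1 rose and 7 fell (33.3%, against 40.7% of all genes), and the median was -0.069. A log2 fold change below 0 was seen in 20 of the 24 and in 7233 of the 14336 genes tested. Without the same library the same numbers of G2/M members were called, with *Bub1* in place of *Cdc25c*, and their median was -0.043. With the offsets 2 rose and 9 fell, 16 of the 24 lay below 0, and the median was -0.082. The largest changes were those of *Ccne1*, which rose by 41.9%, *Uhrf1*, which fell by 20.5%, and *Mcm10*, which fell by 0.32 on the log2 scale. In the plot of log2 fold changes by gene, the 4 genes of helicase activation stand to the left of 0 as a block, and *Ccne1* stands to the right of every other member.

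**Figure D1:**
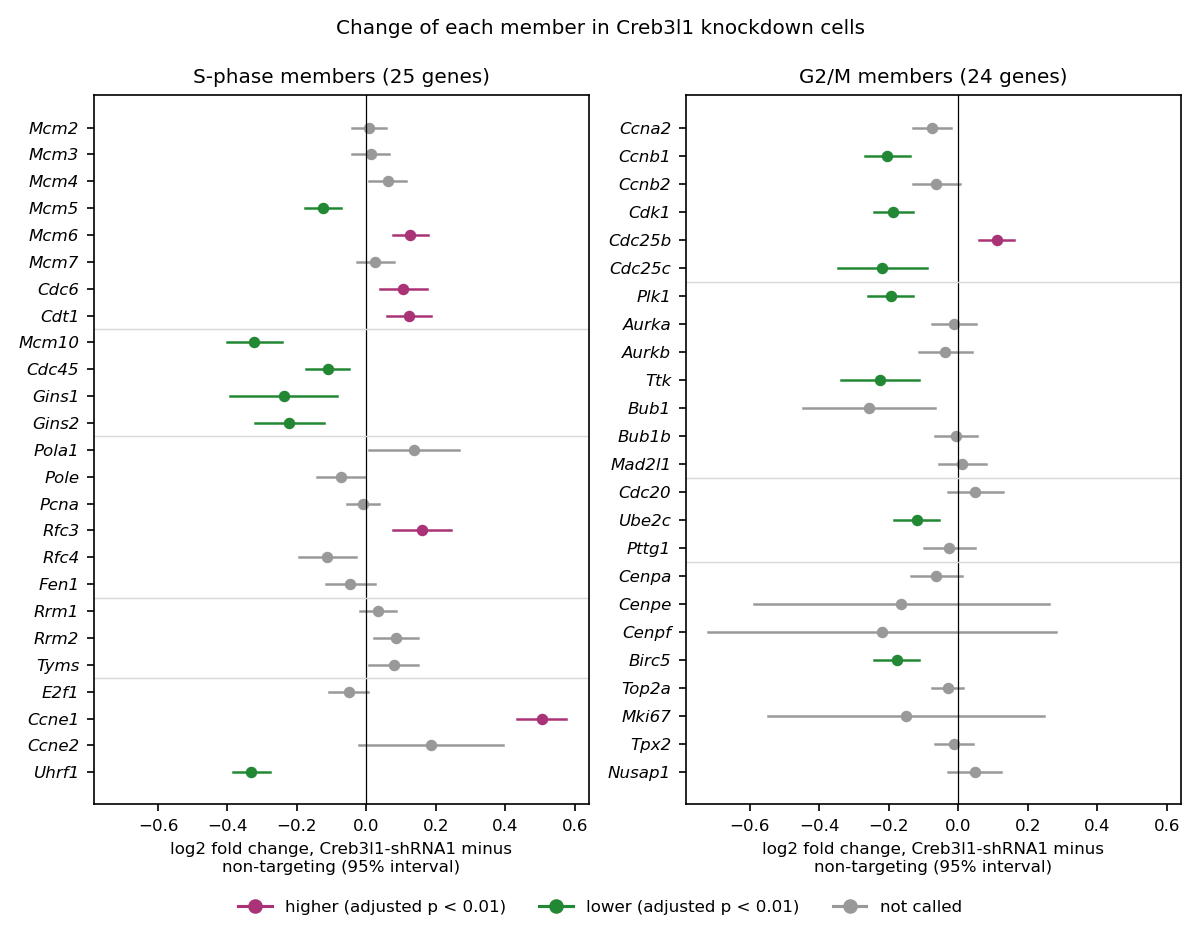
Log2 fold change of each of the 49 members, *Creb3l1*-shRNA1 minus non-targeting, on the x axis, with its 95% interval as a line (edgeR, 5 libraries a line), S-phase members on the left and G2/M members on the right, with role groups divided by grey lines. Coloured points passed an adjusted p under 0.01, and the intervals of *Cenpe*, *Cenpf* and *Mki67* are the widest.

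The regulatory sequence next to these genes is shown for 7 promoters, because the words it holds differ between the S-phase and G2/M members. Promoters of 300 bases, from 250 bases before the RefSeq start to 50 after it on GRCm38.p6, were found for 40 of the 49 members (43 promoters, since some genes have more than 1). They were searched on both strands for TTTNNCGC, a form of the E2F site, for TTTGAA or TTCGAA, the core of the cell cycle genes homology region (CHR), and for CCAAT. Matches to TTTNNCGC on opposite strands can share letters, as they do in *Mcm5* and *Mcm6*. The first set holds S-phase members chosen by name among those with a word in capitals below. *Mcm5* and *Mcm6* moved in opposite directions, and *Uhrf1* and *Ccne1* had the largest fall and rise. *Mcm10*, which also fell, has none of the words marked here in its promoter and is not shown. The capitals mark TTTNNCGC in *Mcm5*, *Mcm6* and *Uhrf1*, and GACGTG, the core of a G-box, read on the other strand in *Ccne1*, in which neither TTTNNCGC nor CHR letters were found. *Mcm5* lies on the plus strand (chr8:75109259-75109558), *Mcm6* on the minus strand (chr1:128359656-128359955), *Uhrf1* on the plus strand (chr17:56304063-56304362, 1 of its RefSeq starts) and *Ccne1* on the minus strand (chr7:38107441-38107740).
Mcm5: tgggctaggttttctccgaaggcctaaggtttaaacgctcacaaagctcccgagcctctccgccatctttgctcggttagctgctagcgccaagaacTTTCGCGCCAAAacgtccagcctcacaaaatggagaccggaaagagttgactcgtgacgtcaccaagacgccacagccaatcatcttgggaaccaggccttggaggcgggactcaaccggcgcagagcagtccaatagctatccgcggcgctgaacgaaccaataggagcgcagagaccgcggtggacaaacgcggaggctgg
Mcm6: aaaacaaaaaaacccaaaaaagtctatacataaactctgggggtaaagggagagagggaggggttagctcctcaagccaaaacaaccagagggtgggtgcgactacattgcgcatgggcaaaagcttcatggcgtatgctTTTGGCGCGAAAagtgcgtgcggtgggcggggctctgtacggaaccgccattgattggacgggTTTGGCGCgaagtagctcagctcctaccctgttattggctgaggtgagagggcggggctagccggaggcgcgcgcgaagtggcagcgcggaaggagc
Uhrf1: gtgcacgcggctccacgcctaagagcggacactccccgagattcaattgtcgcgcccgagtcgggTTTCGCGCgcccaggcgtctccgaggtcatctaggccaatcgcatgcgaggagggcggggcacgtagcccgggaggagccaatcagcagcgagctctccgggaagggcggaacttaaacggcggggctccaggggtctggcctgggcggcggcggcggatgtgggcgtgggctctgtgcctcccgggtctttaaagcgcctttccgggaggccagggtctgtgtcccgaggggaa
Ccne1: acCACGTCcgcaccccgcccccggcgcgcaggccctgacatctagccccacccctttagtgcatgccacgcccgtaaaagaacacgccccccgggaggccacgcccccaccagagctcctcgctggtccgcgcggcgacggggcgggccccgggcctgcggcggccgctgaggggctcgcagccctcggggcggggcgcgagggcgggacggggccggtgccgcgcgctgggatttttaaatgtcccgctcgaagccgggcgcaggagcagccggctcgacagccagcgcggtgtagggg

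The second set holds promoters of G2/M members, with the CHR letters in capitals and, in *Cdk1*, TTTNNCGC as well. All lie on the minus strand, *Cdk1* at chr10:69352863-69353162, *Bub1* at chr2:127831810-127832109 and *Ccnb2* at chr9:70421505-70421804.
Cdk1: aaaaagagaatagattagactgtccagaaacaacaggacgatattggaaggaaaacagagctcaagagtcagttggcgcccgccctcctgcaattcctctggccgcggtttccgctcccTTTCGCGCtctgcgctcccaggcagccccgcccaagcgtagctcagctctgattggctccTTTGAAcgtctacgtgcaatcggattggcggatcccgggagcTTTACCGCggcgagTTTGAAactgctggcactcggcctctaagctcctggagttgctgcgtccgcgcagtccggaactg
Bub1: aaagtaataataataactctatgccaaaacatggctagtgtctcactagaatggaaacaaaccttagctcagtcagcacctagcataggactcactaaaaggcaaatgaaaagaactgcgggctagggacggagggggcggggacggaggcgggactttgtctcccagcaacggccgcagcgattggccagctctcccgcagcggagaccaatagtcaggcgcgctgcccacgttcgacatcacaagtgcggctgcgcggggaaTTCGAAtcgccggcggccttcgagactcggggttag
Ccnb2: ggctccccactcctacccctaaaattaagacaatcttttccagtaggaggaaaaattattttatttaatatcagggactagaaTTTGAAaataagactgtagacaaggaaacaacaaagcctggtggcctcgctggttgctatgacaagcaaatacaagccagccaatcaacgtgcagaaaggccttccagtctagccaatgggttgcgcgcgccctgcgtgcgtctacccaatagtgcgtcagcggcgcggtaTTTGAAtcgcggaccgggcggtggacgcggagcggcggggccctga

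TTTNNCGC was present in 11 of 23 S-phase promoters (47.8%), in 1 of 20 G2/M promoters (5.00%, *Cdk1*) and in 5.17% of all 32851 promoters of the same length. The CHR letters were present in 14 of 20 G2/M promoters (70.0%), 5 of 23 S-phase promoters (21.7%) and 19.2% of all promoters. CCAAT was present in 16 of 20 and 15 of 23, against 37.4% of all. GACGTG was found in *Ccne1*, *E2f1*, *Pola1* and *Pttg1* (4 of 43 promoters, 6.38% of all), and the related CACGTG in *Fen1*, *Tyms* and *Ttk* (3 of 43, 7.15% of all). These are matches of letters in a window and no evidence of binding.

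**Figure D2:**
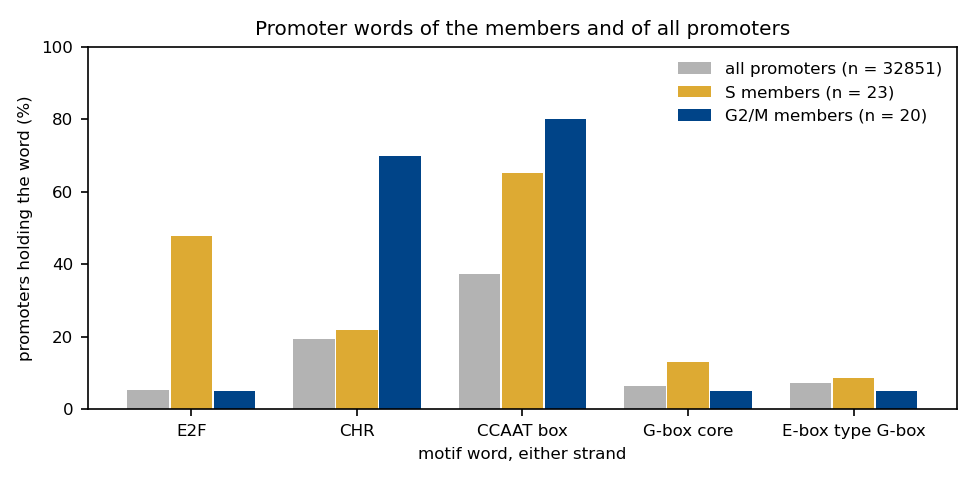
Share of promoters, in percent, that hold each word on either strand, for all 32851 promoters (grey), the 23 S-phase promoters (yellow) and the 20 G2/M promoters (blue). The E2F word stands highest in the S-phase members (47.8%) and the CHR in the G2/M members (70.0%).

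Members with and without the letters had log2 fold changes on both sides of 0. The 10 S-phase genes with TTTNNCGC had a median log2 fold change of 0.093, with 6 called and a range from -0.33 to 0.16. The 10 without it had a median of -0.028, with 3 called and a range from -0.32 to 0.50. Without *Creb3l1*-shRNA1 replicate 2 the medians were 0.084 and -0.032, and with the offsets 0.069 and 0.022. Among G2/M genes the median was -0.091 for the 14 with the CHR letters and -0.095 for the 6 without, with 5 and 2 called. Without that library they were -0.047 and -0.018, with 6 and 2 called, and with the offsets -0.082 and -0.15, with 7 and 3 called. These values are descriptions over genes and were not tested.

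Most members were abundant genes. Mean normalised counts ran from 270.0 for *Gins1* to 22406 for *Mki67*, and 34 of the 49 lay above the upper quartile of all genes tested (1549). Per kilobase of annotated exon, *Pcna*, the sliding clamp of the replication fork, stood highest at 3966 normalised counts in control cells, followed by *Mki67* at 2344 and *Top2a* at 1944. All annotated exons of a gene were counted in this length. It can exceed the longest transcript (9013 against 5221 bases in *Top2a*), so the order of genes depends on the length used. *Cdc25c* stood lowest at 77.2. With such counts, small changes can pass the test: the median SE of the log2 fold change was 0.033 over the members and 0.053 over all genes. The median size of the log2 fold change was 0.11 over the members, 0.15 over all genes and 0.11 over the 3584 genes above the upper quartile, of which 56.0% were called. Of the members, 38.8% were called.

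Among the 8 origin licensing genes, *Mcm6*, *Cdc6* and *Cdt1* rose and *Mcm5* fell, while *Mcm2*, *Mcm3*, *Mcm4* and *Mcm7* did not pass the test. The MCM2 to MCM7 proteins form a ring with a copy of each, and the transcripts of a pair of them moved in opposite directions. *Mcm5* counts were 6621, 6571, 6714, 6778 and 6708 in control replicates 1 to 5 and 6189, 6348, 6097, 5954 and 6036 in knockdown replicates 1 to 5. All 5 knockdown libraries lay beneath the controls, and the log2 fold change was -0.12 (SE 0.025, adjusted p = 5.61e-05). *Mcm6* counts were 6726, 6541, 6427, 6458 and 6296 in controls and 7059.9, 7155, 7244, 7079.8 and 6876 in knockdown cells. Here every knockdown library was above every control library (0.13, SE 0.025, adjusted p = 4.88e-05). In the other 4 subunits the libraries of the lines overlapped. *Mcm2* counts were 7603, 7828, 7910.0, 7854 and 7818 in controls and 7711, 8200.4, 7676, 7732 and 7868 in knockdown cells (0.0065, adjusted p = 0.85). *Mcm3* counts were 6595, 6326, 6426, 6581 and 6396 in controls and 6351, 6712, 6389, 6771 and 6374 in knockdown cells (0.012, adjusted p = 0.731). These were the closest of the 6 between the lines. *Mcm4* counts were 4683, 4776, 4689.8, 4668 and 4591 in controls and 4741, 5009.9, 4971, 4712 and 4995 in knockdown cells (0.062, adjusted p = 0.0504). *Mcm7* counts were 5520.0, 5459, 5692, 5673 and 5550.0 in controls and 5718, 5725, 5655, 5855 and 5454 in knockdown cells (0.026, adjusted p = 0.422), and with GC and length offsets it was called higher (0.079, adjusted p = 0.00255). In control cells the 6 subunits ranged from 1122 (*Mcm2*) to 1723 (*Mcm3*) normalised counts per kilobase of annotated exon. For *Mcm2* that length was 6956 bases, against 3494 in its longest transcript.

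The 2 helicase loaders were both higher. *Cdc6*, the ATPase that brings the helicase to the origin, had 1308, 1247, 1267, 1294 and 1280.5 counts in controls and 1359, 1379.6, 1379, 1399 and 1374 in knockdown cells. The libraries did not overlap, and the difference was small (0.11, SE 0.033, adjusted p = 0.00643). *Cdt1*, its partner in loading, had 3243, 3344, 3157, 3122 and 3104 counts in controls and 3273, 3728, 3618, 3432 and 3356 in knockdown cells. Knockdown replicate 1 lay below the highest control library (0.12, SE 0.031, adjusted p = 0.0011). The call of *Cdc6* was lost when any of 5 single libraries was left out (non-targeting replicate 2, 3 or 5, or *Creb3l1*-shRNA1 replicate 3 or 4, adjusted p up to 0.0195) and under GC and length offsets (0.0455), with the log2 fold change at 0.074 or more.

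All 4 genes of helicase activation fell, the only role group in which every member was called. *Mcm10*, a scaffold needed for the helicase to start unwinding (chr2:4989714-5012791, minus strand), had 1228, 1203, 1335, 1338 and 1299 counts in controls and 1006, 1035, 1034, 1078 and 968 in knockdown cells. The lines were well apart, with the highest knockdown library 1078 against the lowest control library 1203 (-0.32, SE 0.039, adjusted p = 3.78e-09). *Cdc45*, a component of the active helicase, had 1709, 1752, 1770.3, 1836 and 1771 counts in controls and 1625, 1621, 1641, 1642 and 1649 in knockdown cells, without overlap (-0.11, SE 0.031, adjusted p = 0.00235). *Gins2*, a subunit of the GINS complex, had 573, 616, 670.0, 625 and 629 counts in controls and 534, 562, 535, 525 and 513 in knockdown cells. These did not overlap either (-0.22, SE 0.049, adjusted p = 0.00021). *Gins1*, another GINS subunit and the least abundant member, had 276, 296, 282, 327 and 280.0 counts in controls and 235, 269, 221, 280.5 and 234 in knockdown cells, and its libraries overlapped (-0.24, SE 0.076, adjusted p = 0.00841).

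The *Mcm10* and *Gins2* calls were kept in all 18 other fits, whereas those of *Gins1* and *Cdc45* were not. *Gins1* lost its call when any of 6 single libraries was left out (adjusted p up to 0.0442), and *Cdc45* when non-targeting replicate 4 was (0.0107). Under GC and length offsets neither passed (adjusted p = 0.0708 for *Gins1* and 0.0667 for *Cdc45*), with log2 fold changes of -0.16 and -0.062. *Gins2* shares 67.3% of its annotated exon bases with *Gse1* on the opposite strand, a gene with a mean of 6377.7 counts. The library kit keeps strand, but whether the counting used it is not given in the sources used here, and without it the reads of such genes cannot be told apart. *Fen1* shares 78.8% with *Gm10143* and *Ube2c* 22.8% with *Tnnc2*, genes with means of 6.9 and 0.4 counts. Other overlaps join *Ccne2* with *Ints8* (17.4% of its exon bases), *Rfc4* with *Eif4a2* (12.7%) and *Ccna2* with *Exosc9* (12.5%). These partners had means of 660 (*Ints8*), 5275.2 (*Eif4a2*) and 830.9 (*Exosc9*) counts.

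Of the 6 replication fork genes only *Rfc3* was called. RFC3 and RFC4 are both small subunits of the clamp loader, which places the PCNA ring on DNA. *Rfc3* counts were 764, 744, 789.8, 818 and 768 in controls and 891, 855, 862, 905 and 831 in knockdown cells, with every knockdown library higher (0.16, SE 0.042, adjusted p = 0.00121). *Rfc4* counts were 925, 928, 911, 995 and 1002 in controls and 873, 843, 907, 898 and 888 in knockdown cells, with every knockdown library lower, though the test was not passed (-0.11, SE 0.041, adjusted p = 0.0187). The log2 ratio of *Rfc3* to *Rfc4* was -0.29 ± 0.065 in controls and -0.022 ± 0.059 in knockdown cells (mean ± SD, n = 5). It was higher in all 5 knockdown libraries than in any control library, and the difference of 0.27 had an adjusted p of 0.0212 over 8 pairs (2-sided exact permutation test).

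*Pcna* did not pass the test, with 9505, 9366, 9369, 9827 and 9522 counts in controls and 9466, 9248, 9395, 9727 and 9449 in knockdown cells (-0.0093, 95% interval -0.055 to 0.037). *Fen1*, the nuclease that trims Okazaki fragments (-0.046), and *Pole*, the catalytic subunit of the leading strand polymerase (-0.073), did not pass the test, though with offsets *Pole* was called lower (-0.15, adjusted p = 5.34e-05). *Pola1*, the catalytic subunit of the polymerase that lays down primers, had 1506, 1469.8, 1529, 1547 and 1523 counts in controls and 1749, 1378, 1808, 1671 and 1711 in knockdown cells. Knockdown replicate 2 was below every control library and the other 4 were above all of them. Its log2 fold change was 0.14 with all libraries (adjusted p = 0.0771) and 0.20 without that replicate (adjusted p = 7.47e-07), and under GC and length offsets it was 0.052 (adjusted p = 0.222).

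None of the 3 nucleotide supply genes was called, except *Rrm2* with GC and length offsets (0.12, adjusted p = 0.000485). *Rrm1* and *Rrm2* encode the subunits of ribonucleotide reductase and had log2 fold changes of 0.034 (adjusted p = 0.268) and 0.084 (adjusted p = 0.0232). *Tyms*, thymidylate synthase, stood at 0.079 (adjusted p = 0.0589). *Rrm2* counts were 2134, 2241, 2226, 2180.3 and 2233 in controls and 2247, 2371, 2311, 2481 and 2269 in knockdown cells, so that the lines did not overlap although the threshold was not reached. The ratio of *Rrm1* to *Rrm2* differed by -0.049 on the log2 scale (adjusted p = 0.201, exact permutation test).

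Among the 4 genes of G1/S control, *Ccne1* rose more than any other member and *Uhrf1* fell more than any other. *Ccne1* encodes cyclin E1 (chr7:38097984-38107534, minus strand), and its counts were 1322, 1214, 1213, 1260.1 and 1214 in controls and 1719, 1880.5, 1743, 1708 and 1787 in knockdown cells. The lowest knockdown library was 1708 and the highest control library 1322 (0.50, SE 0.035, adjusted p = 1.01e-15). *Uhrf1*, which brings the maintenance methyltransferase to newly copied DNA (chr17:56303321-56323486, plus strand), had 4572, 4607, 4512, 4574 and 4566 counts in controls and 3616, 3764, 3616, 3687 and 3469.7 in knockdown cells. The control mean was 4566 ± 34.2 (SD, n = 5), and all 5 knockdown libraries lay beneath the controls (-0.33, SE 0.027, adjusted p = 8.17e-14). Both calls held in all 18 other fits, and with GC and length offsets the log2 fold changes were 0.58 and -0.29.

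*Ccne2*, the gene of cyclin E2, had 1879, 1973, 2192, 1956 and 1969.7 counts in controls and 2525, 1803, 2288, 2264 and 2443 in knockdown cells. Knockdown replicate 2 was the lowest of all 10 libraries and the other 4 knockdown libraries were the highest. The log2 fold change was 0.19 with all libraries (adjusted p = 0.122), 0.26 without that replicate (adjusted p = 1.62e-07) and 0.12 with offsets (adjusted p = 0.000624). The log2 ratio of *Ccne1* to *Ccne2* was -0.68 ± 0.13 in controls and -0.35 ± 0.24 in knockdown cells, a difference of 0.33 (adjusted p = 0.0317, exact permutation test), or 0.23 without knockdown replicate 2. *E2f1*, an activator of S-phase genes, had 3029, 3149, 2988, 2922 and 3009 counts in controls and 2930.0, 3001, 2926, 2857 and 2856 in knockdown cells. The lines overlapped and the test was not passed (-0.051, adjusted p = 0.131). In control cells *E2f1* stood at 957 normalised counts per kilobase of annotated exon, above *Ccne2* at 571 and *Ccne1* at 468. In knockdown cells *Ccne1* stood at 664 and *Ccne2* at 648. This order depended on knockdown replicate 2, the lowest knockdown library for *Ccne2* and the highest for *Ccne1*, and it turned without that library.

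**Figure D3:**
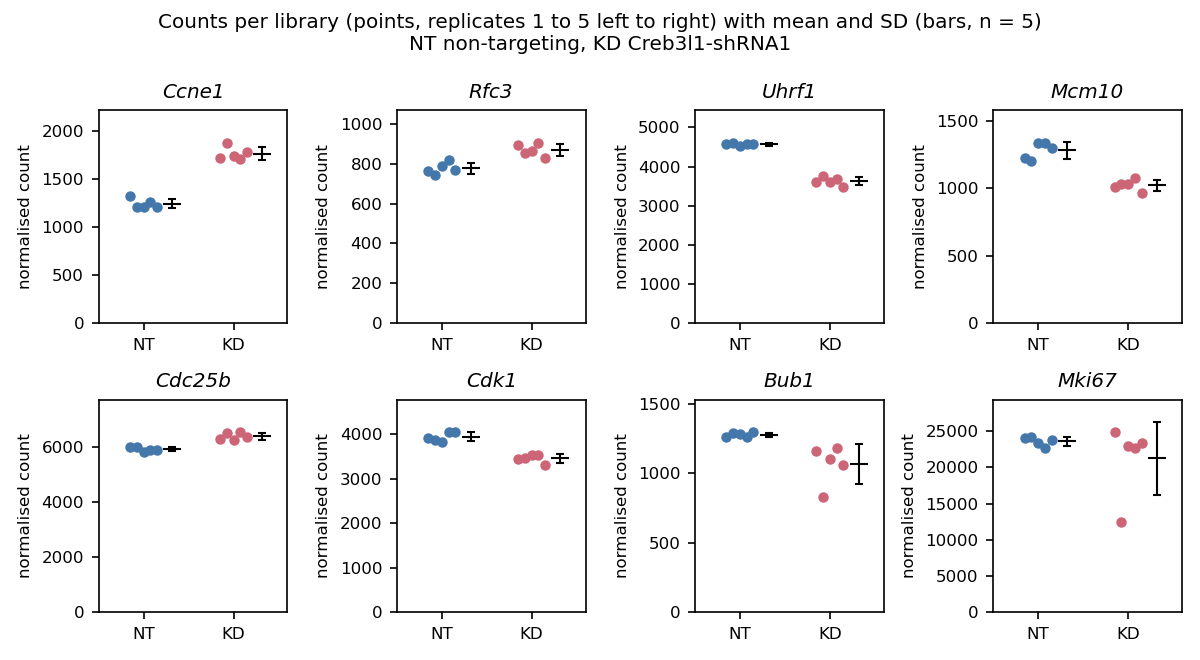
Normalised counts of 8 members in each library, on linear axes from 0, with the 5 control libraries in blue, the 5 knockdown libraries in red, and the mean with its SD as a black bar. *Ccne1*, *Rfc3* and *Cdc25b* were higher and *Uhrf1*, *Mcm10* and *Cdk1* lower in all 5 knockdown libraries, and the lowest point of *Bub1* and of *Mki67* is knockdown replicate 2.

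Mitotic entry held the most calls among the G2/M groups, with 4 of 6 (66.7%, against 40.7% of all genes). It tied with the mitotic kinases and checkpoint genes in other fits, at 3 calls each without *Creb3l1*-shRNA1 replicate 2 and 4 each with offsets. *Ccnb1*, *Cdk1* and *Cdc25c* fell and *Cdc25b* rose. *Cdk1*, the kinase of mitosis, had 3917, 3867, 3825, 4046 and 4038 counts in controls and 3448, 3473, 3543, 3532 and 3303 in knockdown cells. All 5 knockdown libraries were lower (-0.19, SE 0.028, adjusted p = 2.71e-07). *Ccnb1*, its cyclin B1 partner, had 1849.7, 1924, 1919, 1966 and 1899 counts in controls and 1650.1, 1634, 1606, 1766 and 1634 in knockdown cells, again without overlap (-0.20, SE 0.032, adjusted p = 8.63e-07). *Ccnb2*, which encodes cyclin B2, overlapped between the lines (-0.063, adjusted p = 0.113). The log2 ratio of *Ccnb1* to *Ccnb2* fell by 0.14 (adjusted p = 0.0381, exact permutation test) and was below every control library in 4 of 5 knockdown libraries. *Ccna2*, cyclin A2, had 3806 to 4072 counts in controls and 3623 to 3794 in knockdown cells, without overlap and short of the threshold (-0.075, adjusted p = 0.0199).

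The phosphatases that remove the inhibitory phosphates from CDK1 moved in opposite directions. *Cdc25b* had 5989, 5997, 5811, 5873 and 5888 counts in controls and 6279, 6487, 6263, 6532 and 6355 in knockdown cells. It was the only G2/M member that rose (0.11, SE 0.025, adjusted p = 0.00025). *Cdc25c* had 362, 396, 367, 384 and 388 counts in controls and 345, 309, 309.5, 349.6 and 315 in knockdown cells. Its libraries did not overlap (-0.22, SE 0.064, adjusted p = 0.00371), but its call was lost when non-targeting replicate 2 or 5 or *Creb3l1*-shRNA1 replicate 2, 3 or 5 was left out (adjusted p up to 0.0137). The log2 ratio of *Cdc25b* to *Cdc25c* was 3.96 ± 0.055 in controls and 4.29 ± 0.086 in knockdown cells, and the difference of 0.33 had an adjusted p of 0.0212. All 5 knockdown libraries exceeded all controls.

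Of the 7 mitotic kinases and checkpoint genes, *Plk1* and *Ttk* fell. *Plk1*, polo-like kinase 1, which acts from mitotic entry to cytokinesis, had 2689, 2753, 2736, 2724 and 2738 counts in controls and 2197, 2562, 2385, 2411 and 2370.1 in knockdown cells. The lowest was knockdown replicate 1, and the lines did not overlap (-0.19, SE 0.032, adjusted p = 2.42e-06). *Ttk*, the kinase that starts the checkpoint at unattached kinetochores, had 1366, 1550.3, 1440.2, 1385 and 1468 counts in controls and 1359, 1069, 1225, 1304 and 1203 in knockdown cells. Knockdown replicate 2 was the lowest (-0.22, SE 0.053, adjusted p = 0.00188), and without it the log2 fold change was -0.18 (adjusted p = 0.000128). The call of *Ttk* was lost without non-targeting replicate 3 (adjusted p = 0.0105). *Aurka* (-0.012) and *Aurkb* (-0.038), the Aurora kinases of the spindle poles and of the centromere, did not pass the test, and their ratio differed by 0.020 (adjusted p = 0.825, exact permutation test).

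The call of *Bub1* depended on the fit. BUB1 is a kinetochore kinase, and the related BUBR1, from *Bub1b*, is part of the checkpoint complex that binds CDC20. *Bub1* counts were 1260.3, 1289.6, 1281, 1265 and 1297 in controls and 1164, 831, 1101, 1184 and 1059.6 in knockdown cells. All 5 knockdown libraries lay beneath the controls and replicate 2 was the lowest. The log2 fold change was -0.26 (SE 0.084, adjusted p = 0.029), and it passed without that replicate at -0.18 (SE 0.037, adjusted p = 5.38e-05), with DESeq2 (adjusted p = 0.00934), with offsets (1.77e-05) and in a quasi-likelihood fit without the robust option (0.00175). *Bub1b* did not pass the test, at 2146 to 2267 counts in controls and 2154 to 2249 in knockdown cells (-0.0075, adjusted p = 0.859). The log2 ratio of *Bub1* to *Bub1b* was -0.79 ± 0.044 in controls and -1.05 ± 0.22 in knockdown cells. It was lower in all 5 knockdown libraries, by 0.26 with all of them (adjusted p = 0.0212, exact permutation test) and by 0.17 without replicate 2. *Mad2l1*, the checkpoint protein MAD2, was not called (0.011, adjusted p = 0.804), but with GC and length offsets it was called lower (-0.12, adjusted p = 0.00101).

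Among the 3 genes of anaphase control, *Ube2c* fell. It encodes a ubiquitin-conjugating enzyme of the anaphase-promoting complex, and its counts were 2163, 2060.0, 2117, 2053 and 2102 in controls and 1871, 2059, 1969, 1886 and 1878 in knockdown cells. The libraries overlapped at knockdown replicate 2 (-0.12, SE 0.032, adjusted p = 0.00181). The call was lost without non-targeting replicate 1 (adjusted p = 0.0104) or *Creb3l1*-shRNA1 replicate 5 (0.0108), and under GC and length offsets the value was -0.036 (adjusted p = 0.307). *Cdc20*, the activator of that complex (0.049, adjusted p = 0.308), and *Pttg1*, securin (-0.026, adjusted p = 0.595), were not called. With offsets *Cdc20* was called higher (0.15, adjusted p = 0.000146).

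In the 8 chromosome and spindle genes, only *Birc5* fell. BIRC5, or survivin, belongs to the chromosomal passenger complex with Aurora B, and its counts were 1937, 1972, 2004, 2021 and 2124 in controls and 1752, 1823, 1736, 1852 and 1731 in knockdown cells. There was no overlap (-0.18, SE 0.032, adjusted p = 1.21e-05), and the call held in all 18 other fits. *Top2a*, the topoisomerase that untangles sister chromatids, had 17075 to 17877 counts in controls and 16431 to 17836 in knockdown cells (-0.031, 95% interval -0.076 to 0.014). *Tpx2*, which activates Aurora A on the spindle (-0.013), *Nusap1*, which binds spindle microtubules (0.047), and *Cenpa*, the histone of centromeres (-0.063), did not pass the test. Without *Creb3l1*-shRNA1 replicate 2 *Nusap1* stood at 0.088 (adjusted p = 0.02). With offsets *Top2a* was called lower (-0.10, adjusted p = 4.25e-06).

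*Mki67*, *Cenpf* and *Cenpe* were set apart by a single library. *Mki67* encodes Ki-67, the coat protein of mitotic chromosomes used as a marker of cycling cells, and its counts were 24066, 24183, 23302, 22660.3 and 23700.0 in controls and 24835, 12404, 22918, 22632 and 23356 in knockdown cells. *Cenpf*, a kinetochore protein, had 3497, 3423, 3647, 3452 and 3554 counts in controls and 3634, 1478, 3039, 3409 and 3506 in knockdown cells. *Cenpe*, the kinetochore motor that aligns chromosomes, had 1992, 1974, 1827, 1980.3 and 1955 counts in controls and 2062, 960.0, 1712, 1982 and 1939 in knockdown cells. In each gene knockdown replicate 2 had the lowest count of the 10 libraries, while the other knockdown libraries spread over or near the control range. With all libraries the log2 fold changes were -0.15, -0.22 and -0.16, with SEs of 0.17, 0.22 and 0.18. Without that library they were -0.0066, -0.046 and -0.013 (adjusted p = 0.834, 0.315 and 0.803), and none passed the test either way.

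**Figure D4:**
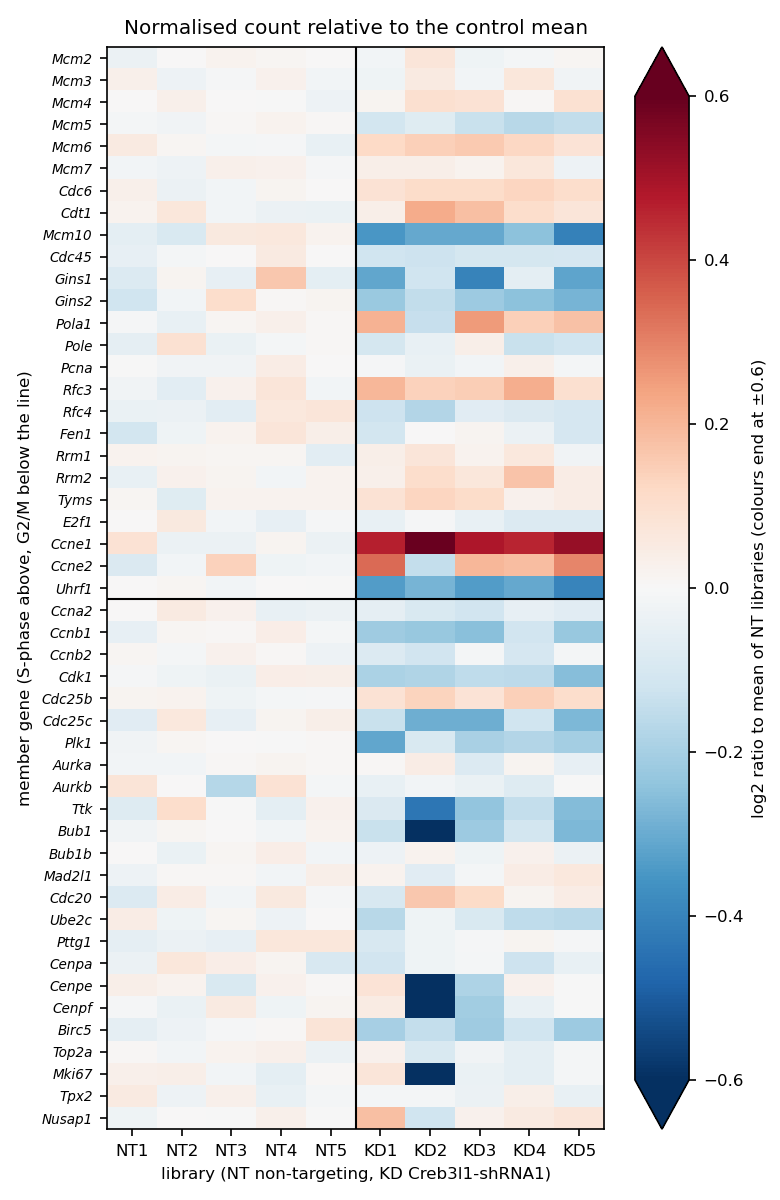
Log2 ratio of each member's normalised count to the mean of the 5 control libraries, by colour (red higher, blue lower, ends at ±0.6), with members in rows and the 10 libraries in columns, NT for non-targeting and KD for *Creb3l1*-shRNA1. *Ccne1* is red and *Uhrf1* and *Mcm10* are blue across all 5 knockdown columns, and *Bub1*, *Cenpe*, *Cenpf* and *Mki67* are dark blue in KD2.

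The low members of that library were long or poor in G and C. Of 5 members whose longest annotated transcript has at least 6000 bases, the median deviation from the other 4 knockdown libraries was -0.92 on the log2 scale (*Mki67*, *Cenpf* and *Cenpe* low, *Pole* and *Mad2l1* between -0.10 and 0.036), against 0.025 for the 44 shorter members. Over 14 members with under 45% GC the median was -0.15, and over the 35 others 0.045. Tested genes at large, members included, deviated in the same library by base composition. Over 692 tested genes with at least 6000 bases and under 45% GC its median deviation was -0.11, and the other 9 libraries ranged from -0.047 to 0.080. Over 643 genes of the same length with at least 50% GC it was 0.076, the highest of the 10 libraries. The part of transcript length, base composition or the state of the cells in these values was not tested.

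**Figure D5:**
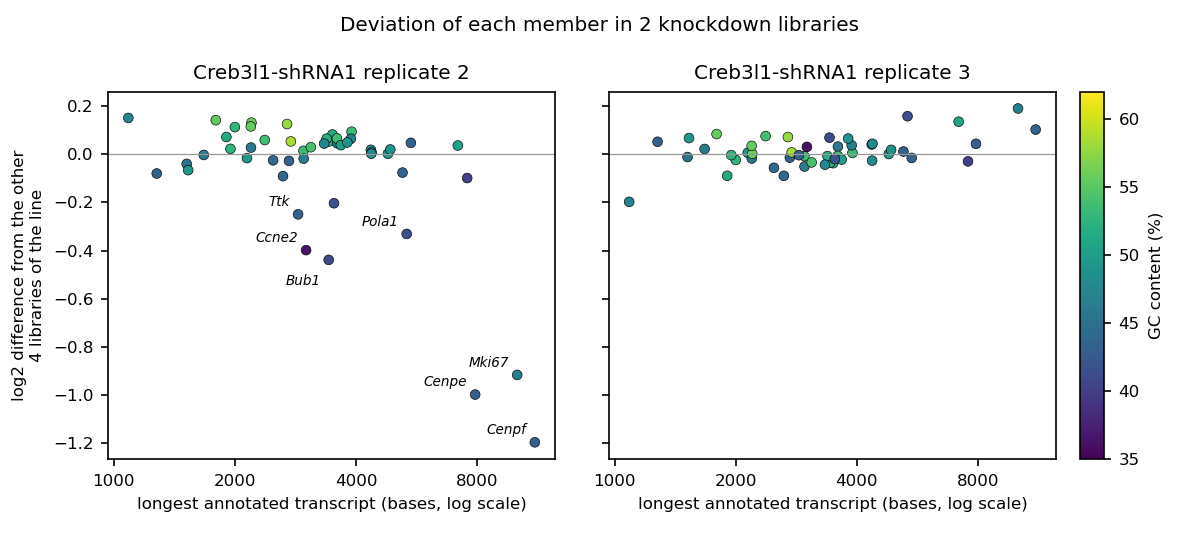
Log2 difference of each member from the mean of the other 4 libraries of the knockdown line (y axis) against the length of its longest annotated transcript (x axis, log scale), coloured by GC content, in knockdown replicate 2 (left) and replicate 3 (right). In replicate 2 *Mki67*, *Cenpe* and *Cenpf* lie near or below -0.92, and in replicate 3 no member lies below -0.20.

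Averaged over genes, each library can be placed on a scale of log2 ratios to the control mean. Over the 24 G2/M members the mean lay between -0.011 and 0.0082 in control libraries, and was -0.060, -0.23, -0.092, -0.051 and -0.077 in knockdown replicates 1 to 5. The medians over the same genes were -0.068, -0.091, -0.063, -0.059 and -0.038, so that every knockdown library was below the controls' lowest median of -0.011 and replicate 2 was again the lowest. Over the 25 S-phase members the knockdown libraries ranged from -0.023 to 0.013 and the controls from -0.019 to 0.024, and these overlapped. No test was made of these averages.

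Other genes of the same processes were counted in the same fit. Of 52 other replication genes, 21 were called, 9 higher and 12 lower (40.4%, against 40.7% of all genes), with a median of -0.021, and 25 were called without *Creb3l1*-shRNA1 replicate 2 (median -0.028). The largest fall was that of *Tk1*, thymidine kinase 1, at 1758 ± 71.8 counts in controls and 1328 ± 41.9 in knockdown cells (-0.40, adjusted p = 4.02e-13). The helicase *Recql4* (-0.30, adjusted p = 1.54e-06), *Chtf18*, of an alternative clamp loader (-0.30, adjusted p = 3e-05), and the primase subunit *Prim2* (-0.24, adjusted p = 5.39e-06) also fell. The GINS complex did not move as a unit: *Gins3* rose (0.34, adjusted p = 0.000466) and *Gins4* fell (-0.19, adjusted p = 3.31e-05; with offsets -0.10, adjusted p = 0.0138), beside the fall of *Gins1* and *Gins2*. *Dna2*, a nuclease and helicase of Okazaki fragment processing, rose (0.31, adjusted p = 4.17e-09), and so did *Dck*, deoxycytidine kinase (0.22, adjusted p = 1.07e-06), and the origin recognition subunit *Orc5* (0.20, adjusted p = 0.00012), whose call was lost with offsets (0.13, adjusted p = 0.0127). Of 63 other mitosis genes, 20 were called, 4 higher and 16 lower (31.7%, against 40.7% of all genes), with a median of -0.062. Without *Creb3l1*-shRNA1 replicate 2 it was 23, 5 higher and 18 lower, with a median of -0.029. *Lmnb1*, lamin B1 of the nuclear envelope, fell most, from 2464 ± 68.3 to 1609 ± 61.2 counts (-0.62, adjusted p = 1.39e-19), followed by *Cks1b*, a small subunit of cyclin-dependent kinases (-0.36, adjusted p = 4.25e-11), *Hmmr*, a spindle protein (-0.27, adjusted p = 1.22e-05), and the centrosomal kinase *Nek2* (-0.27, adjusted p = 1.29e-09). *Hmmr* stood at -0.23 and *Nek2* at -0.28 without *Creb3l1*-shRNA1 replicate 2. *Cenpk*, a kinetochore subunit (0.51, adjusted p = 1.01e-06), and *Cdc25a*, a phosphatase of the same family as *Cdc25b* (0.24, adjusted p = 1.08e-07), rose, as did *Spc25* of the outer kinetochore (0.18, adjusted p = 0.000435) and *Hjurp*, which places CENPA (0.13, adjusted p = 2.34e-05).

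Of 21 cell cycle transcription factors and their partners, 13 were called, 7 higher and 6 lower (61.9%, against 40.7% of all genes and 56.0% of those above the upper quartile of counts). Most of the 21 lay below that quartile. The atypical repressor *E2f7* rose from 984 ± 48.5 to 1539.5 ± 65.8 counts (0.65, adjusted p = 6.84e-18), and the activators *E2f2* (0.28, adjusted p = 1.13e-10) and *E2f3* (0.47, adjusted p = 3.88e-12) rose too. *Rbl1*, the pocket protein p107, rose (0.30, adjusted p = 2.05e-07), as did *Mycn* (0.61, adjusted p = 3.63e-10). *Foxm1* (0.14, adjusted p = 0.0064) and *Rbbp4* (0.092, adjusted p = 0.00321) were also called higher. *Foxm1* lost its call in fits that included DESeq2 (adjusted p = 0.0122) and the one without *Creb3l1*-shRNA1 replicate 2 (0.0271). *Rbbp4* lost its call with offsets (0.048, adjusted p = 0.0837) and without *Creb3l1*-shRNA1 replicate 4 (0.0169). *E2f4* (-0.17, adjusted p = 8.28e-05), *E2f5* (-0.25, adjusted p = 0.00241), *E2f6* (-0.18, adjusted p = 8.85e-05), *E2f8* (-0.18, adjusted p = 5.04e-05), *Tfdp2*, a dimer partner of E2F proteins (-0.24, adjusted p = 4.75e-08), and *Lin54*, the subunit of the DREAM complex that binds CHR letters (-0.16, adjusted p = 0.00124), fell. With offsets *E2f4* (-0.081, adjusted p = 0.0398) and *E2f5* (-0.20, adjusted p = 0.0115) lost their calls, and *E2f5* did so without *Creb3l1*-shRNA1 replicate 3 (adjusted p = 0.0166). *E2f7* and *Mycn* were the only genes of this list that passed 1.5-fold with the threshold on p, and *Lmnb1* was the only one among the other mitosis genes.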

How the data were processed

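The authors extracted RNA from both AtT20 lines, prepared libraries with an Illumina TruSeq Stranded mRNA kit, sequenced read pairs, mapped them to GRCm38 using STAR and summed reads per gene using featureCounts. They deposited raw counts, whole numbers for each gene and library, with no normalisation. Replicate numbers and lines came from the sample titles.

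The tools were edgeR 4.0.16 and limma 3.58.1 under R 4.3.3. Genes were kept by filterByExpr, libraries were scaled by TMM, and the quasi-likelihood test with the robust option compared the lines with no covariate. P-values were adjusted by Benjamini and Hochberg over all 14336 genes tested, with a threshold of 0.01. Normalised counts are counts divided by the effective library size and multiplied by its mean. SEs are the size of the log2 fold change divided by the root of its F statistic. Log2 ratios of 8 pairs of related members (counts + 0.5) were compared by a 2-sided exact permutation test over 252 arrangements (smallest p 0.00794), adjusted over the pairs. The depth of 17420698 to 22205107 counts left a biological coefficient of variation of 5.37%, and counting error was largest in genes with few counts. Near-identical copies may share reads (*Pcna-ps2* had a mean of 47.6 counts, *Ccnb1-ps* 11.5).

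The alternatives were DESeq2 1.42.0, RLE factors, library totals, other filters, a replicate block, leaving out libraries singly, and thresholds of 0.05 and of 1.5-fold. A fit with GC and length offsets, and the test without the robust option, were added after the data were seen. The replicate numbers did not pair the libraries. Exon lengths came from GENCODE and promoters from RefSeq. The members, lists, pairs and words were chosen with earlier results of these data known, and the rule named every member and, of each list, the 4 largest increases and 4 largest decreases among called genes whose normalised counts averaged 100 or more. *Gins4*, *E2f2*, *E2f4*, *Lin54*, *Foxm1* and *Rbbp4* were named after their values were seen, and so was the choice of further members given by library. No protein sequence is printed.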

Additional observations from a re-analysis of the deposited data

Results flagged for a closer look

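In each group of 5 libraries the highest or lowest value was compared with the other 4, and 9 groups held a value set apart by more than Dixon's 95% critical value, against about 5.3 that chance gives at 1 group in 20. Among control libraries, *Rrm1* was 6570.2 in replicate 5 (6931 to 6972 in the others), *Tyms* was 1162 in replicate 2 (1234 to 1241), and *Cenpe* was 1827 in replicate 3 (1955 to 1992), all as normalised counts. Among knockdown libraries, *Ccnb1* was 1766 in replicate 4 (1606 to 1650.1). *Cenpf* was 1478 (3039 to 3634) and *Mki67* 12404 (22632 to 24835) in knockdown replicate 2, and the mean log2 ratio of the G2/M members was -0.23 there (-0.092 to -0.051 in the others). The TMM factor, which rescales a library's total, was 0.953 in non-targeting replicate 3 (1.005 to 1.007 in the other controls) and 0.9997 in *Creb3l1*-shRNA1 replicate 1 (1.005 to 1.006 in the other knockdown libraries).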

How the results depend on the processing

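Over the 18 other fits, 16 to 23 members were called, 34 of the 49 kept their side of the threshold and direction throughout, and the median over the members stayed between -0.044 and -0.023. When single libraries were left out, the number called was 5408 to 6026 over all genes, 16 to 21 over the members (5 to 8 higher, 10 to 13 lower), 9 to 13 over S-phase members and 6 to 8 over G2/M members. It was 20 to 25 over the other replication genes, 18 to 23 over the other mitosis genes and 12 to 14 over the transcription factors. A threshold of 1.5-fold left 1108 of all genes, 0 members (0 higher, 0 lower, 0 in S phase and 0 in G2/M), 0 other replication genes, 1 other mitosis gene and 2 transcription factors. At an adjusted p under 0.05, *Rfc4*, *Rrm2*, *Ccna2* and *Bub1* were called besides the 19 members that passed 0.01. At that threshold 31 of the 63 other mitosis genes were called. *Mad2l1* turned from 0.011 to -0.12 with the GC and length offsets, and the cause was not tested. Scaling by library totals ended the calls of *Cdc45*, *Gins1* and *Ube2c*. Same-numbered libraries of the lines correlated by -0.065 to 0.040, so the numbers gave no pairing. With the replicate block, 19 members were called, *Pola1* gained a call (adjusted p = 0.00562) and *Ttk* lost its own (0.0634). Counts limit the precision most for *Gins1* and *Cdc25c*.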
